A study of Mus musculus with 8 samples.

Results

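Mgll, Nacad, Prss50, Artn, Ptpn14, Slc23a1 and Slc17a7 are 7 genes whose signal was far lower with dexamethasone (DEX in the labels) than without it, on both slides, in mouse early erythroid progenitors infected with a control virus. They were selected on the difference in their array signal between the control virus cells with and without DEX, so that comparison is given here as a description with no test. The array carried 11 probes for the 7 genes, and 10 of them passed the filter on low signal. They are 7 of 19130 genes and 11 of 39429 probes of the series. In cells with shRNA1, 5 of the 7 genes lay above the control virus cells with DEX on both arrays, at 1.64 to 3.40 times the control level, as did 18% of all genes tested. None of them came back to the level without DEX. With shRNA2 the same was seen for 2 of the 7, Nacad and Slc23a1, at 1.29 and 1.24 times, and for 7.26% of all genes. That count was 1 of the 7 with quantile normalization, with the array median as scale and in the authors' deposited table. In the same settings the shRNA1 count was 4, against 8.76% to 13.1% of all genes. The planned normexp background correction gave 0 for shRNA1 and 7 for shRNA2, against 3.97% and 53.5%. With aberrant local backgrounds repaired it gave 4 and 0, against 13% and 6.05%. None of the 7 passed a test across all genes against the control with DEX, whose arrays also served to choose them.

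The study measured messenger RNA on 8 one-colour arrays, 2 in each of 4 groups. The groups were cells with shRNA1 and DEX, cells with shRNA2 and DEX, cells with the control virus and DEX, and cells with the control virus and no DEX. All came from C57BL/6 fetal liver at embryonic stage E14.5. The liver cells were depleted magnetically of those bearing lineage markers, Sca-1, CD16/32, CD41 or CD34, and sorted for c-kit and the lowest 10% of CD71 signal. They were then infected and cultured for 3 days. The short hairpin RNAs (shRNAs) are directed against a protein for which the labels give no name beyond RBP, for RNA-binding protein. The published study of this design identifies it as Zfp36l2. All 3 groups with DEX share the steroid, so no group shows what a hairpin does without it. Nor do the labels used here name the promoter that drives a hairpin, or say whether replicate arrays come from different animals or cultures. The p-values below can therefore speak only for the spread among these 8 arrays, and that spread may be technical.

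Dexamethasone is a synthetic glucocorticoid. It binds the glucocorticoid receptor, a transcription factor of the cytoplasm that moves into the nucleus and raises some genes while lowering others. In erythroid progenitors glucocorticoids are known for favouring self-renewal over maturation, as in stress erythropoiesis. Zfp36l2 is a zinc-finger protein that binds AU-rich stretches of messenger RNAs and speeds their decay. The 7 genes belong to unlike families. Mgll encodes monoglyceride lipase, which cleaves monoacylglycerols, among them the endocannabinoid 2-arachidonoylglycerol. Prss50 encodes a serine protease best known from testis. Nacad resembles the alpha subunit of the nascent polypeptide-associated complex, a chaperone at the ribosome. Artn encodes artemin, a secreted ligand of the GDNF family. Ptpn14 is a tyrosine phosphatase with a FERM domain that binds the transcriptional coactivator Yap1. Slc23a1 carries ascorbate into cells with sodium, and Slc17a7 loads glutamate into synaptic vesicles.

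The arrays read these genes with probes of 60 bases, and what a value means depends on where its probe lies. Positions are those of the deposited files, mouse build mm9. They were not matched to a gene annotation of that build, so exons and untranslated regions are not assigned. Mgll had 4 probes on chromosome 6 and Prss50 had 2 on chromosome 9, and the other 5 genes had 1 probe each. The sequences of the Mgll and Prss50 probes are shown because they allow separate readings of 1 gene, and those of Nacad and Artn as examples of genes whose arrays did not overlap between the hairpins. For Artn and for the second and the third Mgll probe only the first 30 bases are printed. All are written 5′ to 3′ as deposited.
Mgll probe A_55_P2063312, chr6:88714636-88714695, plus strand: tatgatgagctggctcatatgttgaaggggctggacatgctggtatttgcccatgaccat
Mgll probe A_55_P2114863, chr6:88775976-88776035, plus strand: ctttatgaaggagggagtatattttctaca
Mgll probe A_55_P2063316, chr6:88778292-88778351, plus strand: aattactaaagaagccaatgtgcactacag
Prss50 probe A_55_P2176748, chr9:110766294-110766353, plus strand: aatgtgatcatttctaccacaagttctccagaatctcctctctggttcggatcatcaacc
Prss50 probe A_55_P2079787, chr9:110766789-110766848, plus strand: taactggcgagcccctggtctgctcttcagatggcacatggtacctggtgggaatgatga
Nacad probe A_52_P406181, chr11:6498603-6498896, minus strand: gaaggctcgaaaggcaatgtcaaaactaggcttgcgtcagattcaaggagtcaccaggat
Artn probe A_55_P1978241, chr4:117598825-117598884, minus strand: atatatacatatatacattgtagtcgcgtt
The Nacad probe spans more genomic positions than its 60 bases, so its match to the genome is in pieces. The Ptpn14 probe lies at chr1:191693892-191693951 and the Slc17a7 probe at chr7:52430841-52430900, both on the plus strand. The remaining Mgll probe, A_55_P2063311 at chr6:88716266-88716325, was not well above background on any of the 8 arrays and gave no fold.

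Levels below are log2 of the processed signal minus the 75th percentile of the same array, so that 0 is the level of a fairly bright probe of that array. A negative level is a dimmer probe, and levels of different probes are not compared. Between 58.9% and 62.5% of probes per array were well above background by the scanner software, and no spot was saturated. The 75th percentile ranged from 8.90 to 11.01 on the log2 scale and was higher on slide 2. Replicate 1 of every group was on slide 1 and replicate 2 on slide 2, so the slide and the replicate number are the same thing here. Zfp36l2 had levels of 4.09 and 3.92 with shRNA1, 4.12 and 3.70 with shRNA2, 5.55 and 5.42 with the control virus and DEX, and 3.49 and 3.85 without DEX, so both hairpin groups lay below the control with DEX. All 11 of the erythroid markers that passed the filter were well above background on every array. Their summed linear signal, relative to the array's 75th percentile, was 693 to 1762 with shRNA1, 464 to 1227 with shRNA2, 452 to 874 with the control virus and DEX and 661 to 1185 without DEX. In such bulk samples, fewer cells of a type and less RNA per cell cannot be told apart.

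Mgll and Prss50 encode the lipase and the protease of the set. Mgll, read by its brightest probe, had levels of -3.29 and -3.24 with shRNA1, -4.31 and -3.86 with shRNA2, -4.03 and -3.92 with the control virus and DEX, and -0.50 and -0.68 without DEX. The arrays without DEX stood well above all others, and the shRNA1 arrays stood just above the other arrays with DEX. With DEX the control virus cells differed by -3.38 on the log2 scale, or 10.4-fold lower, at -3.52 and -3.25 on the 2 slides. Prss50 had levels of -3.15 and -4.01 with shRNA1, -3.10 and -4.55 with shRNA2, -4.27 and -4.57 with the control virus and DEX, and -0.32 and -1.05 without DEX. Its 13.3-fold lower level with DEX was the largest fold of the 7 genes. Both shRNA1 arrays lay above both control arrays with DEX, whereas 1 of the shRNA2 arrays lay between the control arrays.

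**Figure D1:**
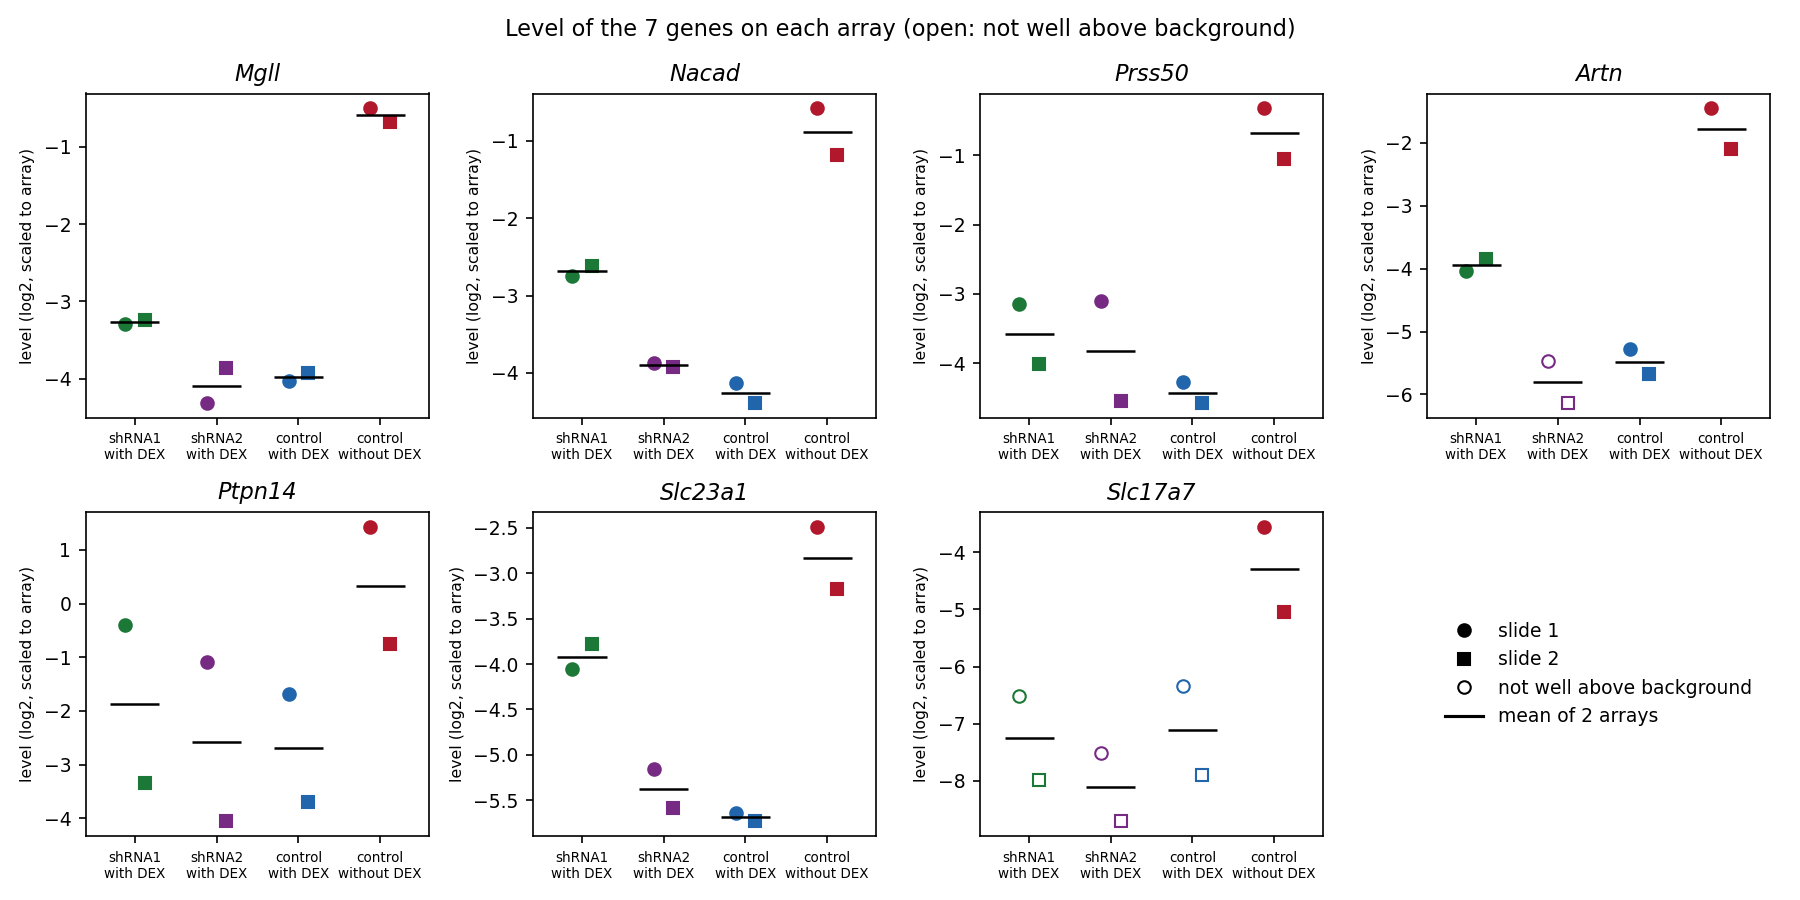
Level of each of the 7 genes on each of the 8 arrays (y axis, log2 of signal minus the array's 75th percentile; each panel has its own range), by group, with circles for slide 1, squares for slide 2, open symbols where the probe was not well above background and lines for means of 2 arrays. The arrays without DEX are the highest of each panel for all genes but Ptpn14, whose slide 1 arrays are high in every group; Slc17a7 is well above background only without DEX.

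Nacad and Artn, the chaperone-like protein and the secreted ligand, stood between the control with DEX and the cells without it with shRNA1. Nacad had levels of -2.74 and -2.61 with shRNA1, -3.87 and -3.92 with shRNA2, -4.14 and -4.39 with the control virus and DEX, and -0.58 and -1.18 without DEX. No array of 1 group overlapped with another group, and the order was control virus with DEX lowest, then shRNA2, then shRNA1, then no DEX. Artn had levels of -4.04 and -3.85 with shRNA1, -5.48 and -6.13 with shRNA2, -5.28 and -5.68 with the control virus and DEX, and -1.45 and -2.11 without DEX. Its probe was not well above background on either shRNA2 array, so the shRNA2 level has only an upper bound. The shRNA2 and control arrays with DEX overlapped. Control virus cells with DEX were 10.4-fold below those without DEX for Nacad and 13.0-fold below for Artn.

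Ptpn14, the FERM-domain phosphatase, had the widest gap between the slides. It had levels of -0.40 and -3.33 with shRNA1, -1.09 and -4.05 with shRNA2, -1.69 and -3.69 with the control virus and DEX, and 1.43 and -0.76 without DEX. The slide 1 array was the higher one in each of the 4 groups. The arrays without DEX lay above those of the control with DEX and of shRNA2 without overlap, and the other pairs of groups overlapped. Within slides the difference with DEX was steady, at -3.12 and -2.93. The SE of a Ptpn14 difference was 1.48 without the slide in the fit and 0.312 with the slide as a block. The summed signal of 7 markers of monocytes and macrophages also differed by slide: on slide 1 and slide 2 it was 60.6 and 10.4 with shRNA1, 64.3 and 6.66 with shRNA2, 22.9 and 6.97 with the control virus and DEX, and 19.1 and 10.8 without DEX. Between 6 and 7 of these markers were well above background on each array. The gap was not particular to them. The summed signal of 11 erythroid markers was also higher on slide 1 in each group, at 1762 and 693 with shRNA1 and 1185 and 661 without DEX. That of 13 neutrophil and granulocyte precursor markers was not higher on slide 1 in each group, being 40.9 and 182 without DEX. The part of any of these markers in the Ptpn14 values was not tested.

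Of the 2 transporters, only Slc23a1 could be read on arrays with DEX. Its probe lies at chr18:35774840-35774899, minus strand, in build mm9. Slc23a1 had levels of -4.06 and -3.78 with shRNA1, -5.15 and -5.59 with shRNA2, -5.64 and -5.73 with the control virus and DEX, and -2.49 and -3.17 without DEX. Its groups did not overlap, and they stood in the same order as those of Nacad. Slc17a7 had levels of -6.51 and -7.99 with shRNA1, -7.51 and -8.71 with shRNA2, -6.34 and -7.89 with the control virus and DEX, and -3.56 and -5.05 without DEX. It was well above background only on the 2 arrays without DEX, so no level can be given for it with DEX. Its signal with the control virus and DEX was at least 4.13-fold lower than without DEX, and whether a hairpin moved it among the cells with DEX cannot be read from this probe. The bound sets a dim array at the higher of the probe's own signal and the lowest signal well above background. Slc23a1 was 7.24-fold lower with DEX than without.

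Ordered by the size of the fall, the 7 genes ranked 8th (Prss50), 11th (Artn), 15th (Mgll), 16th (Nacad), 24th (Ptpn14), 34th (Slc23a1) and 37th (Slc17a7) of all genes tested. Genes at least 2-fold lower with DEX on both slides numbered 393, or 2.05% of those tested, and 16.5% of all genes had both arrays with DEX below both without. All 7 genes did so, which their choice fixed. The rule that chose them had no numeric limit. The 5 largest falls outside the choice are given among genes with a RefSeq symbol and a fall of at least 2-fold on both slides. These were Fabp4, a carrier of fatty acids (-4.46), Abca8b, a transporter of the ABC family (-4.45), and Serinc2, a serine incorporator family membrane protein (-3.81). Next came Ifit1, an interferon-induced gene (-3.78), and Tpsg1, a mast cell tryptase (-3.73). These genes ranked 1st, 2nd, 4th, 5th and 9th of all genes tested. With the control virus and DEX, Abca8b and Ifit1 were well above background on neither array, and Fabp4 and Tpsg1 on only 1. Their falls are therefore only as measured.

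The question asked of the hairpins was whether cells in which the RNA-binding protein is targeted regain the level seen without DEX. The comparison shares its control arrays with the one that chose the genes. A control array with DEX that is low by chance makes a gene more likely to be chosen and also raises the hairpin difference, so the adjusted p-values below are no independent evidence. With shRNA1, Mgll was higher than in control virus cells with DEX by 0.71 ± 0.30 (SE, n = 2 each) on the log2 scale, at 0.74 and 0.68 on the slides. Nacad was higher by 1.58 ± 0.32, at 1.39 and 1.77. Slc23a1 was higher by 1.77 ± 0.36, at 1.58 and 1.95, which was the largest of the 7 differences and the 178th largest of all genes tested.

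Artn, the secreted ligand, was higher with shRNA1 by 1.53 ± 0.39, at 1.23 and 1.83 on the slides. Prss50 was higher by 0.84 ± 0.59, at 1.12 and 0.56. Ptpn14 was higher by 0.82 ± 1.48, at 1.29 and 0.36, with overlapping arrays. The 5 genes whose 2 shRNA1 arrays both lay above both control arrays with DEX were Mgll, Nacad, Prss50, Artn and Slc23a1. Among all genes tested 18% did so. At least 2-fold on both slides were 3 of the 7, Nacad, Artn and Slc23a1, against 3.04% of all genes. Over the 6 genes that could be read the median difference was 1.19, and over all genes it was 0.18. Of 11 erythroid markers, 10 were also higher with shRNA1 than in the control with DEX, with a median of 0.51. Their part in these differences was not tested. Taken relative to the median of all genes, the differences were 0.53 for Mgll, 1.40 for Nacad, 0.66 for Prss50, 1.35 for Artn, 0.64 for Ptpn14 and 1.59 for Slc23a1. In the authors' deposited log2 table the differences were smaller, at 0.95 for Nacad, 0.67 for Slc23a1, 0.48 for Artn and 0.26 for Mgll.

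In limma's test across all genes with Benjamini-Hochberg adjustment, 0 of 19130 genes (0%) passed an adjusted p of 0.05 between shRNA1 and the control with DEX, and 400 had an unadjusted p below it. Adjusted p was 0.923 for each of Mgll, Nacad, Prss50, Artn, Ptpn14 and Slc23a1. With the slide as a block, again 0 genes passed, and 3409 had an unadjusted p below 0.05. The adjusted p in limma was then 0.229 for Nacad, Artn and Slc23a1, 0.249 for Mgll, 0.268 for Prss50 and 0.271 for Ptpn14. The 95% intervals of the log2 differences from the fit without the block were 0.69 to 2.48 for Nacad, 0.77 to 2.76 for Slc23a1 and 0.45 to 2.62 for Artn. They use the 4 residual degrees of freedom and leave out those that limma adds for its p-values. They are therefore wider than limma's own intervals. With 2 arrays against 2, an exact two-sided permutation test of a single gene could not give a p below 0.333.

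With shRNA2 the mean differences from the control with DEX were smaller than those with shRNA1. Nacad was higher by 0.36 ± 0.32 (SE, n = 2 each) on the log2 scale, at 0.26 and 0.46 on the slides, and Slc23a1 by 0.31 ± 0.36, at 0.48 and 0.14. These 2 genes had both shRNA2 arrays above both control arrays, as had 7.26% of all genes. Relative to the median signal of each array only 1 of the 7 did so, against 4.9% of all genes, and 1 of the 7 did so in the authors' deposited table, against 7.47%. Prss50 differed by 0.60 ± 0.59, but by 1.17 on slide 1 and 0.02 on slide 2. Ptpn14 differed by 0.60 on slide 1 and -0.36 on slide 2, and Mgll by -0.28 and 0.06. Artn differed by -0.32 ± 0.39, at -0.20 and -0.45, with arrays overlapping. Its shRNA2 arrays were not well above background, so these values are only as measured. None of the 7 was 2-fold higher on both slides, against 0.758% of all genes. Over the 6 readable genes the median difference was 0.22, and over all genes it was 0.01. For the erythroid markers it was -0.04, with 4 of 11 higher. For the neutrophil and granulocyte precursor markers it was 2.42, with 13 of 13 higher. Markers of monocytes and macrophages (7 of 7 higher) and of megakaryocytes and platelets (8 of 8) each had a median of 1.09. Mast cell and basophil markers (5 of 6) had 1.16. The part of these markers was not tested. In limma 0 of 19130 genes (0%) passed, 240 had an unadjusted p below 0.05, and the adjusted p of each of the 7 was 1. In the fit that blocks on slide, 1 gene passed (0.00523%), which was none of the 7, and 1090 had an unadjusted p below 0.05. The lowest adjusted p among the 7 in limma was then 0.78.

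**Figure D2:**
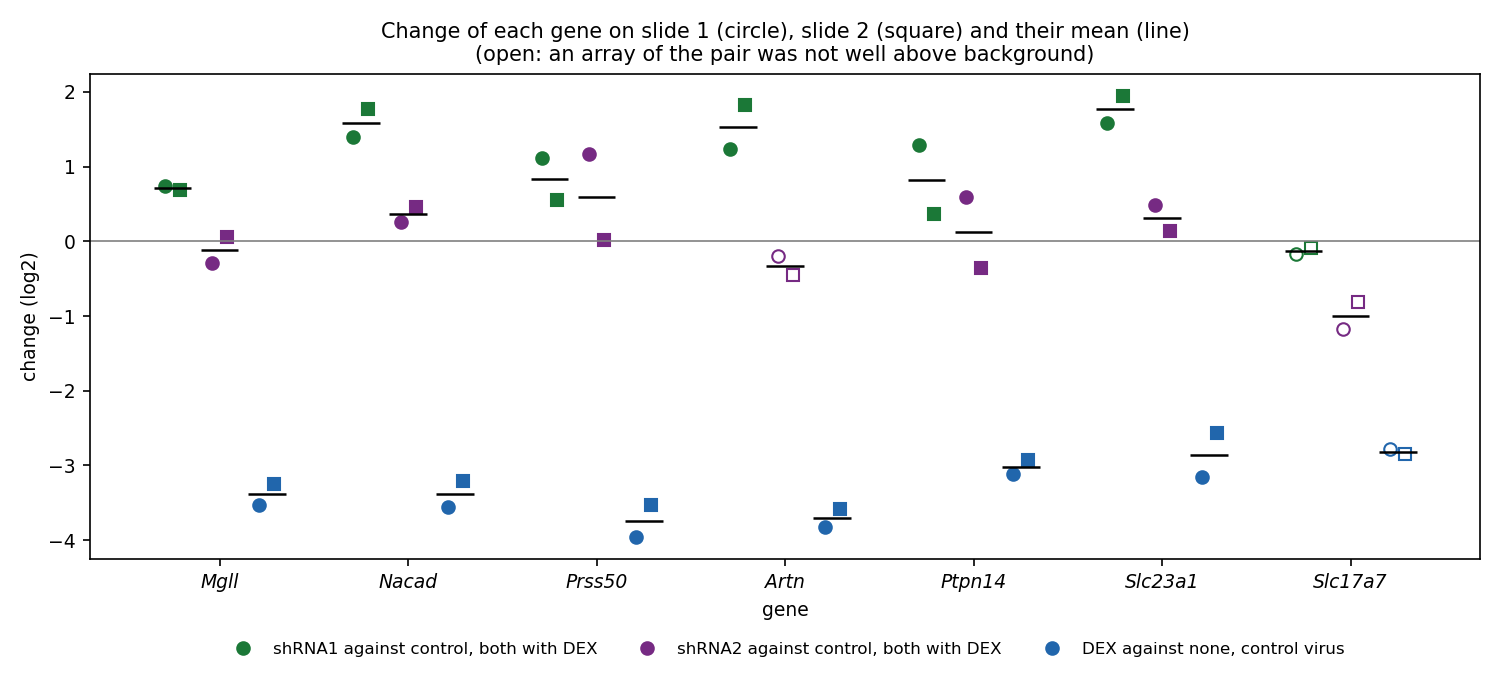
Difference in log2 signal (y axis) of each of the 7 genes in 3 comparisons, on slide 1 (circles), on slide 2 (squares) and as the mean (lines), with open symbols where an array of the pair was not well above background. The shRNA1 differences lie between 0.36 and 1.95 on both slides for all genes but Slc17a7, whose values with DEX are all near background, and the differences with DEX against none are -2.56 or lower.

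The share of the fall that a hairpin regained was taken as its log2 difference from the control with DEX over the log2 fall with DEX. Both parts of this ratio use the control arrays with DEX, so the share is a description. With shRNA1 it was 61.9% for Slc23a1, at 50.2% and 76.2% on the slides, 46.8% for Nacad, at 39.2% and 55.3%, and 41.4% for Artn, at 32.3% and 51.1%. For Ptpn14 it was 27.2%, at 41.3% and 12.3%. For Prss50 it was 22.5%, at 28.4% and 15.8%, and for Mgll 21.0%, at 21.0% on both slides. With shRNA2 the share was 15.9% for Prss50, 10.99% for Slc23a1, 10.8% for Nacad, 3.90% for Ptpn14, -3.32% for Mgll and -8.77% for Artn as measured on shRNA2 arrays that were not well above background. No gene of the 6 reached 100% with either hairpin on either slide. Serinc2, outside the choice, passed 100% with shRNA1 on slide 1 and by the means, but not on slide 2 and not with shRNA2. On slide 2 it was 3.61 higher with shRNA1, against a fall of -3.72. Its levels were -0.51 and -1.58 with shRNA1 and -4.08 and -6.18 with shRNA2. They were -5.32 and -5.19 with the control virus and DEX, and -1.42 and -1.47 without DEX.

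**Figure D3:**
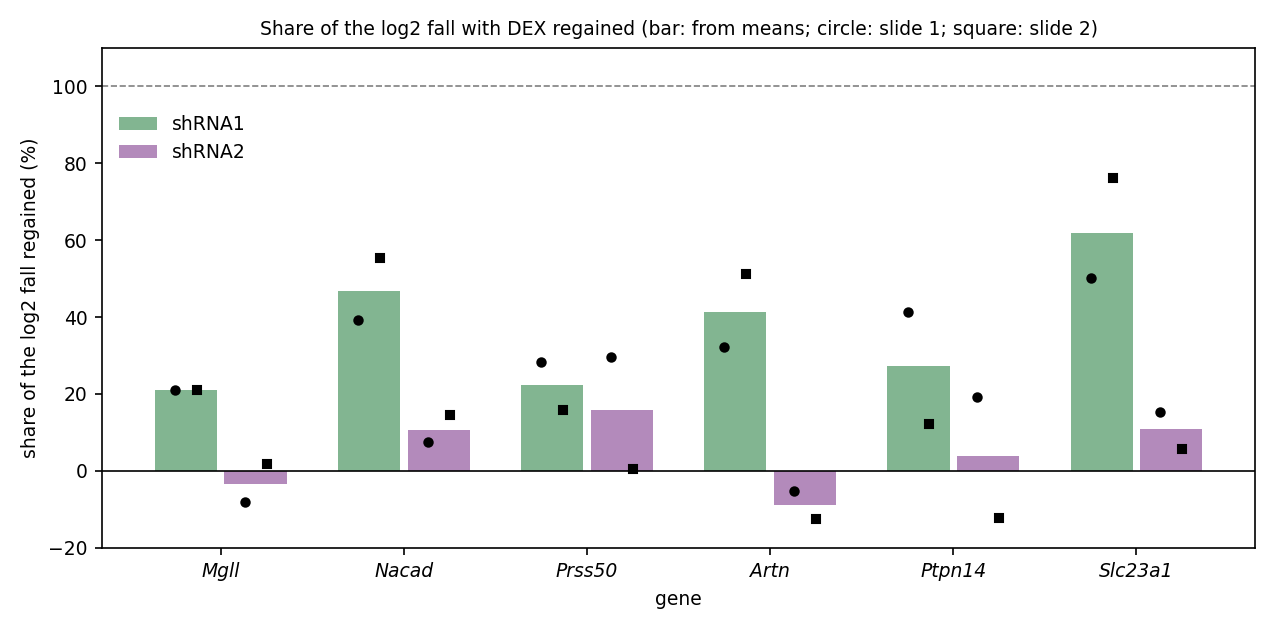
Share of the log2 fall with DEX that each hairpin regained (y axis, percent) for 6 genes, from the means of 2 arrays (bars) and on slide 1 (circles) and slide 2 (squares); the dashed line marks the level without DEX. The shRNA1 bars range from 21.0% to 61.9% and the shRNA2 bars from -8.77% to 15.9%, with Artn under shRNA2 not well above background.

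The 2 hairpins were then set against each other. The mean differences of this comparison use none of the arrays behind the choice of the genes. Its SEs, intervals and p-values do use those arrays, because the spread of a gene was estimated from all groups together. These SEs, intervals and p-values are therefore not independent of the choice. Artn was at least 3.53-fold higher with shRNA1 than with shRNA2, where its probe was not well above background. The measured difference was 1.86 on the log2 scale, at 1.43 and 2.28 on the slides. Slc23a1 was higher with shRNA1 by 1.45 ± 0.36 (SE, n = 2 each), at 1.099 and 1.81. Nacad was higher by 1.22 ± 0.32, at 1.13 and 1.31. Mgll was higher by 0.82 ± 0.30, at 1.02 and 0.62. For each of these 4 genes both shRNA1 arrays lay above both shRNA2 arrays, as for 12.3% of all genes. At least 2-fold on both slides were Artn, Slc23a1 and Nacad, against 1.54% of all genes tested.

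Ptpn14 was higher with shRNA1 by 0.69 and 0.72 on the slides, while its arrays overlapped between the hairpins. Prss50 did not keep 1 direction, with -0.05 on slide 1 and 0.54 on slide 2. The 95% interval of its log2 difference, formed in the same way as those above, was -1.39 to 1.88, which allows a sizeable difference either way. Slc17a7 was not well above background with either hairpin and has no fold. Over the 6 readable genes the median difference was 1.02, and over all genes it was 0.13. Of 11 erythroid markers, 10 were higher with shRNA1 than with shRNA2, with a median of 0.55. Of 13 neutrophil and granulocyte precursor markers 0 were higher (-0.88), of 8 megakaryocyte and platelet markers 2 (-0.45), and of 7 monocyte and macrophage markers 4 (0.20). The part of these markers was not tested. In limma 0 of 19130 genes (0%) passed between the hairpins, 456 had an unadjusted p below 0.05, and the adjusted p was 1 for each of the 7. With the slide as a block also 0 passed, and 2105 genes had an unadjusted p below 0.05. The adjusted p in limma was then 0.267 for Artn, 0.281 for Nacad and Slc23a1 and 0.35 for Mgll. None of the differences between the hairpins therefore passed the test across all genes. The authors' deposited table gave smaller differences of the same sign, 0.70 for Artn, 0.63 for Slc23a1, 0.80 for Nacad and 0.47 for Mgll. A background correction by normexp reversed all 7 signs, and the same correction with aberrant local backgrounds repaired gave 0.71, 0.71, 0.76 and 0.43 for these 4 genes. The level of Zfp36l2 itself differed by 0.09 between the hairpins.

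**Figure D4:**
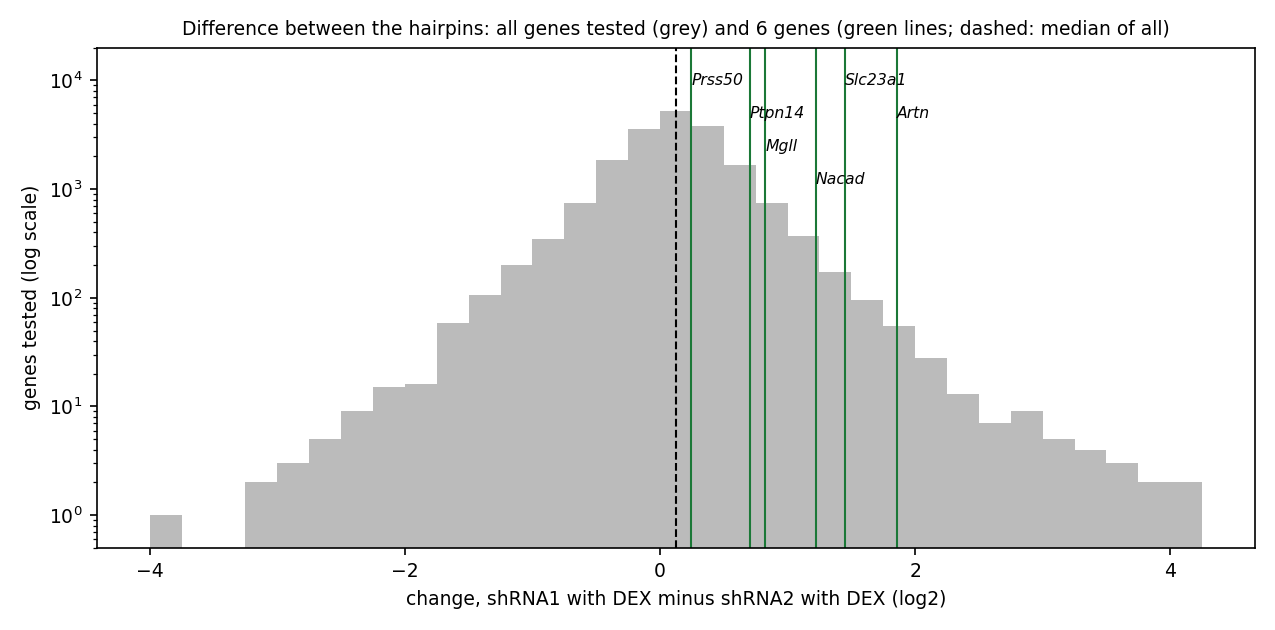
Number of genes tested (y axis, log scale) by log2 difference of shRNA1 minus shRNA2, both with DEX (x axis), with green lines for the 6 genes measured and a dashed line for the median of all genes. The lines run from 0.24 for Prss50 to 1.86 for Artn, all to the right of the median of 0.13.

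Against the level without DEX, the hairpin cells stayed low. Cells with shRNA1 and DEX differed from the control virus cells without DEX by -2.90 for Prss50 on the log2 scale, -2.67 for Mgll, -2.20 for Ptpn14, -2.17 for Artn, -1.80 for Nacad and -1.09 for Slc23a1. Slc17a7 was at least 3.12-fold lower. For 6 of the 7 both shRNA1 arrays were below both arrays without DEX, against 8.38% of all genes, Ptpn14 being the exception. Cells with shRNA2 and DEX differed by -3.50 for Mgll, -3.14 for Prss50, -3.02 for Nacad, -2.91 for Ptpn14 and -2.54 for Slc23a1, while Artn was at least 15.9-fold and Slc17a7 at least 3.13-fold lower. All 7 were below without overlap, against 12.4% of all genes. The arrays without DEX also served to choose the genes, so these calls are no independent evidence.

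In limma without the block, 0 of 19130 genes (0%) passed in either of these comparisons. Without it 495 genes for shRNA1 and 590 for shRNA2 had an unadjusted p below 0.05. With the block these unadjusted counts were 2887 and 2217. In the fit that blocks on slide, 21 genes (0.11%) passed for shRNA1, among them Mgll with an adjusted p of 0.0428 in limma, and Slc17a7. For shRNA2 34 genes (0.178%) passed. They included Mgll, Nacad and Artn with an adjusted p of 0.0329 in limma, Prss50 with 0.0477, and Slc17a7. Slc17a7 passed the filter on low signal only through the arrays without DEX, so it had to be lower here and no p is given for it. The Artn value rests on shRNA2 arrays that were not well above background. All of these p-values use the arrays without DEX on which the genes were chosen. These calls hung on single arrays. With the block, the calls for shRNA1 were lost when any 1 array of a control group or of shRNA1 itself was left out. They were kept when either shRNA2 array was left out. For shRNA2, 1 of the 7 passed (Slc17a7) without shRNA2 replicate 1, and 0 passed without any other single array.

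The repeated probes of Mgll and Prss50 were also lower in signal with DEX, by amounts that differed between probes, apart from the Mgll probe that was dim on all arrays. Mgll probe A_55_P2114863 had levels of -4.62 and -5.07 with shRNA1, -4.58 and -5.73 with shRNA2, -5.79 and -6.03 with the control virus and DEX, where it was not well above background, and -2.01 and -2.41 without DEX. As measured, its signal with the control virus and DEX was 13.0-fold lower than without DEX, against 10.4-fold for the brightest Mgll probe. It was 2.09-fold higher with shRNA1 and 1.69-fold higher with shRNA2 than in the control with DEX. By this probe both hairpin groups therefore lay above the control. These folds are uncertain, because they rest on control arrays that were not well above background. Mgll probe A_55_P2063312 had levels of -5.03 and -5.32 with shRNA1, -6.19 and -5.86 with shRNA2, -6.09 and -5.64 with the control virus and DEX, and -2.47 and -3.46 without DEX. With DEX the control virus cells differed by -2.90, at -3.62 and -2.19 on the slides. Among the cells with DEX it was well above background only on 1 shRNA1 array and 1 control array. This probe can therefore not place the hairpin groups against the control with DEX.

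Prss50 probe A_55_P2176748 had levels of -5.29 and -4.75 with shRNA1, -5.12 and -5.72 with shRNA2, -5.99 and -5.28 with the control virus and DEX, and -1.35 and -2.00 without DEX. With DEX the control virus cells differed by -3.96, at -4.64 and -3.28 on the slides, against -3.74 by the brighter probe. The shRNA1 and control arrays with DEX overlapped here, unlike those of the brighter probe. The share of the fall regained was 15.5% with shRNA1 and 5.38% with shRNA2, against 22.5% and 15.9% by the brighter Prss50 probe. Both probes placed the hairpin cells far closer to the control with DEX than to the cells without it.

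**Figure D5:**
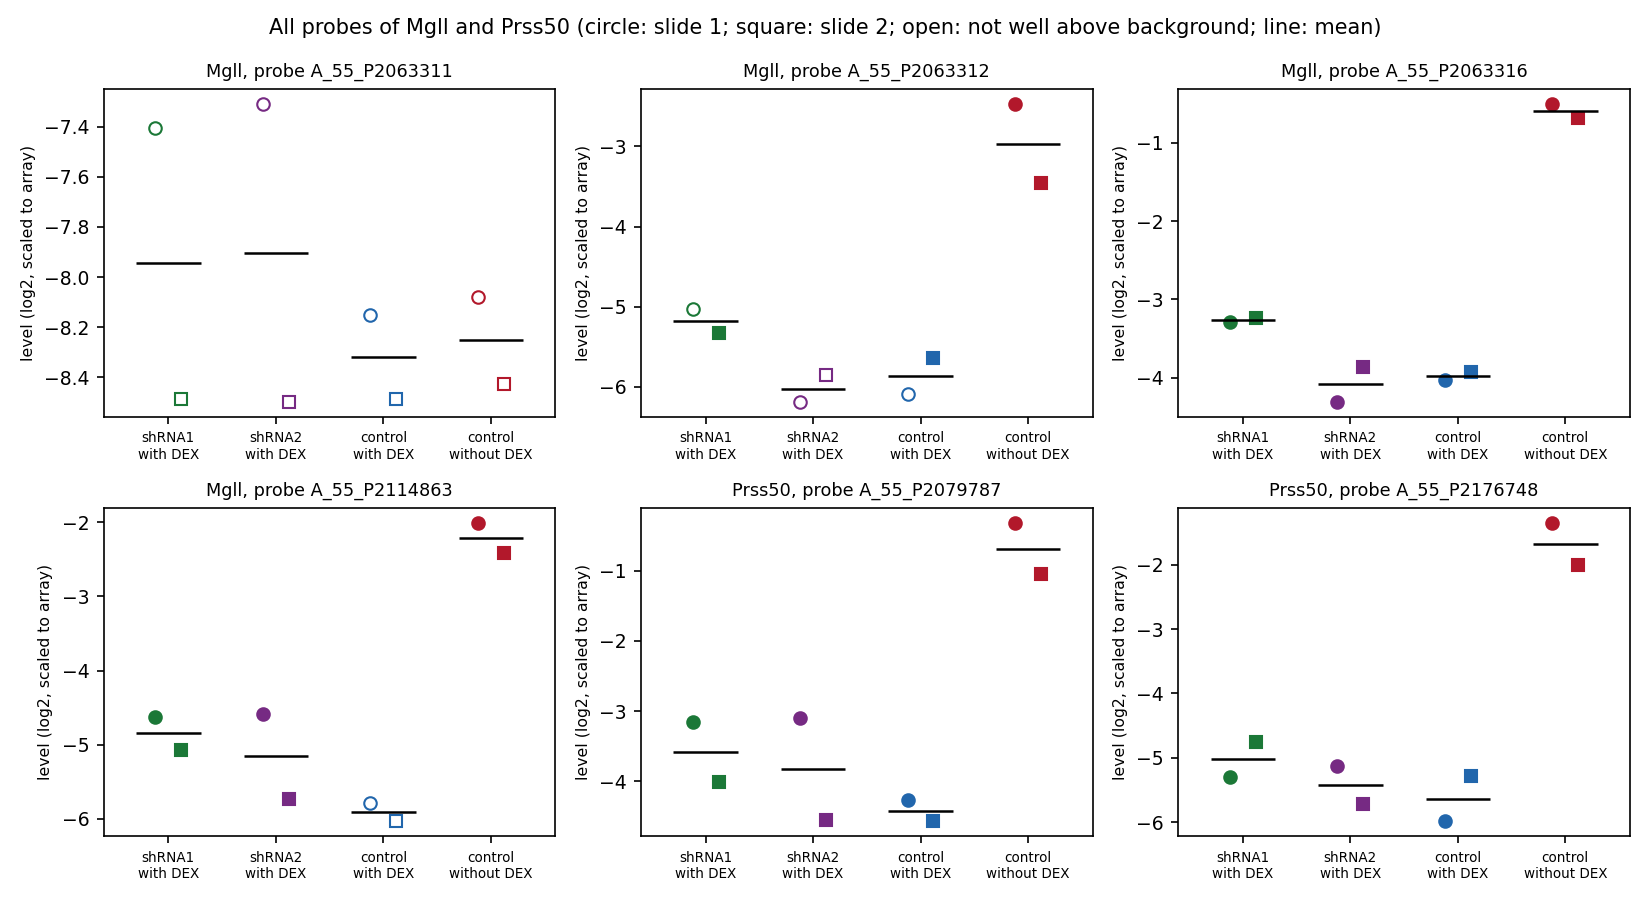
Level (y axis, log2 of signal minus the array's 75th percentile; each panel has its own range) of the 4 Mgll and the 2 Prss50 probes on each array, by group, with open symbols where the probe was not well above background. Of these 6 probes 5 are highest without DEX; the first Mgll probe is near background on all 8 arrays.

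Over the 8 arrays, the Pearson correlation of each of the 7 genes with the mean of the other 6 ran from 0.80 for Ptpn14 to 0.961 for Artn. The choice on the fall sets most of this, and the points share slides, so it is given with no test. The genes most like the mean profile of the 7 over the 8 arrays were Ro60, an RNA-binding protein of small cytoplasmic RNPs (r = 0.975), Ccn4, a secreted matricellular protein (0.968), Apol11b (0.967), Slc25a27, a mitochondrial carrier (0.966) and Snx22, a sorting nexin (0.961). Ro60 had levels of -1.66 and -2.03 with shRNA1, -2.00 and -2.74 with shRNA2, -2.40 and -2.28 with the control virus and DEX, and -0.76 and -1.02 without DEX. Snx22 differed by -1.79 with DEX on the log2 scale, and from the control with DEX by 0.97 with shRNA1 and 0.25 with shRNA2. Ccn4 was well above background only on the 2 arrays without DEX. Apol11b was so on those and, with DEX, on 1 control array and 1 shRNA1 array. The correlations of Ccn4 and Apol11b therefore rest in part on dim arrays.

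The relatives of the 7 genes mostly did not share the fall. None of the relatives in any list below passed limma's test in any comparison, with or without the block. Of 10 other genes of monoglyceride and endocannabinoid metabolism that could be tested out of 15, 3 were higher and 7 lower with DEX, with a median of -0.05. The lowest was Alox12, a lipoxygenase, at -2.03. The 3 genes listed for the nascent polypeptide-associated complex, Naca, Btf3 and Btf3l4, lay between -0.15 and -0.02. They stood almost level while Nacad was 10.4-fold lower. Of 9 other Prss proteases tested out of 23, the lowest with DEX was Prss34, a protease of mast cells and basophils, at -0.92. Of 5 other GDNF family ligands and receptors tested out of 9, the values with DEX lay between -0.39 for Nrtn and 0.11 for Pspn, and those with shRNA1 between 0.42 for Gfra3, the receptor subunit of artemin, and 1.0997 for Gfra4.

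The genes listed as relatives of Ptpn14 likewise had a median near level, with some single genes further off. Of 13 other FERM-domain phosphatases and Hippo pathway genes tested out of 20, 5 were higher and 8 lower with DEX, with a median of -0.05, a lowest value of -0.98 for the kinase Stk3 and a highest of 0.62 for Tead2. Of 5 genes of ascorbate and glucose transport tested out of 7, all were lower with DEX, and Slc2a4, the insulin-responsive glucose carrier, was lowest at -2.88. It had levels of -2.67 and -2.70 with shRNA1, -4.01 and -5.38 with shRNA2, -4.37 and -4.96 with the control virus and DEX, and -1.56 and -2.01 without DEX. These are the same order as for Slc23a1 between shRNA1, the control with DEX and the cells without it. Of 4 other SLC17 transporters tested out of 8, the highest with DEX was Slc17a4 at 2.70, the reverse of Slc17a7. The median of all genes with DEX was -0.08.

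The erythroid markers were set beside the 7 genes one by one. Of the 11 tested, 10 were lower with DEX than without in control virus cells, with a median of -0.71 and a lowest value of -2.04 for Slc4a1, the anion exchanger of the red cell membrane. Slc4a1 was also the most raised with shRNA1 against the control with DEX, at 1.87, and against shRNA2, at 1.85. Kit, the stem cell factor receptor of early progenitors, was the 1 marker with the opposite sign in these 3 comparisons, at 1.72 with DEX, -1.20 with shRNA1 against the control with DEX and -0.95 between the hairpins. None of the 11 passed limma's test in any comparison, with or without the block.

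Markers of other blood cells also differed between the arrays. The summed signal of 13 neutrophil and granulocyte precursor markers was 133 and 146 with shRNA1, 547 and 90.9 with shRNA2, 37.3 and 66.5 with the control virus and DEX, and 40.9 and 182 without DEX. That of 8 megakaryocyte and platelet markers was 71.5 and 18.7 with shRNA1, 168 and 11.4 with shRNA2, 25.6 and 14.7 with the control virus and DEX, and 46.8 and 64.4 without DEX. All 13 and all 8 of these markers were well above background on each array. Both sums were highest on the slide 1 array with shRNA2, where 5 of the 6 readable genes stood below the slide 1 array with shRNA1. On slide 2 both sums were lower with shRNA2 than with shRNA1, and each of the 6 readable genes was also lower with shRNA2. The part of such cells in the differences between the hairpins was not tested.

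The promoters of 3 of the genes are shown because the 7 genes moved together, and short letter patterns known for the glucocorticoid receptor and for erythroid factors can be looked for in them. They are the 250 bases before the annotated start, from RefSeq, build GRCm38.p6, whose positions do not compare with the probe positions above. The capitals mark AGAACA, the core hexamer bound by the glucocorticoid receptor, in Mgll, CCAAT in Nacad and GGGCGG, the GC box, in Artn, each on either strand, so that a match on the other strand reads TGTTCT or CCGCCC.
Mgll, chr6:88724162-88724411, plus strand: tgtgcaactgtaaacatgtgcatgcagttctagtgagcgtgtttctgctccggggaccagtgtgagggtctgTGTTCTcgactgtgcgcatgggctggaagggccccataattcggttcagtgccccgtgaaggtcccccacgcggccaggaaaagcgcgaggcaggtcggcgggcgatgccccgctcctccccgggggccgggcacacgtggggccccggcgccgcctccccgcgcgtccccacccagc
Nacad, chr11:6606055-6606304, minus strand: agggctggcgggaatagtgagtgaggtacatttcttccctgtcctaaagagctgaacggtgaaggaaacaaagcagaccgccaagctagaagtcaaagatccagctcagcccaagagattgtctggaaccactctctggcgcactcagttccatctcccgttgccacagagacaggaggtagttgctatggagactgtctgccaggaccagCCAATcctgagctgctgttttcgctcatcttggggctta
Artn, chr4:117929764-117930013, minus strand: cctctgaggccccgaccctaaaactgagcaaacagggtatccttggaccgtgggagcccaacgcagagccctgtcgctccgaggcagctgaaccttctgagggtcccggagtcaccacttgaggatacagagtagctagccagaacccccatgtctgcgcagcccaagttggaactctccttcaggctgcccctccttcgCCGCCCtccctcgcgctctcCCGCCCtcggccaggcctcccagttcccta
For 6 of the genes 8 such stretches were searched. The pair of stretches from Prss50 overlaps almost wholly, so that promoter is counted more than once. Of the 8, 1 held AGAACA, against 16.1% of 32851 promoters of the same length. It lies 178 to 173 bases before the Mgll start on the minus strand. The GATA site AGATAA, in 9.99% of promoters, the KLF site CCACACCC, in 3.2%, the TATA box TATAAA, in 12.4%, and the AP-1 site TGANTCA, in 6.75%, were in none of the 8. The GC box was in 4 of the 8 (Artn, Ptpn14, Slc17a7 and a second Mgll start), against 32.7% of all, and CCAAT in 1 of the 8, against 33.8%. These patterns were searched on both strands. A match is no evidence of binding, and a missing one says only that the letters are not in these 250 bases.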

How the data were processed

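Total RNA was labelled with Cy3 and hybridised to 8 Agilent arrays. Per the file headers, the authors quantified spots with Agilent Feature Extraction 10.1.1.1, and the deposited intensity is its processed signal on a linear scale, with flags for spots well above background, saturated or outlying. The submitters' processing notes also name limma. The authors' deposited table holds log2 values made by steps that the sources used here do not give. It had a Spearman correlation of 1 with each array's own median signal and column medians of 6.65 to 6.66, was not centred per gene, and served as an alternative. Depth is not defined for arrays; their number limits the precision.

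Control spots (1377 of 44397) and outlier spots were left out and spots of a probe averaged. Log2 signal minus the array's 75th percentile entered 1 linear model per gene over all 8 arrays, without the slide (lmFit and eBayes, limma 3.58.1, R 4.3.3). The 19130 genes had a probe that both arrays of some group showed well above background. A gene stood for its probe with the highest mean, and differences were called at a Benjamini-Hochberg adjusted p below 0.05. The replicate number marks the slide: deviations of same-slide arrays from their group means correlated at 0.431 to 0.859 between groups, so values with the slide as a block are given beside the results whose calls it changes. On simulated data for shRNA1 against the control with DEX, 200 of 19130 genes were changed. The test recovered 0% of changes of 1 log2 unit with either fit. It recovered 30.5% of changes of 3 without the block and 73.5% with it. An unadjusted limma p fell below 0.05 for 0.713% to 0.866% of the unchanged genes without the block. With the block it did so for 5.5% to 5.78%. Genes were named by a fixed rule. It took the 7 genes and all their probes, and the lowest and highest of each list of relatives. It also took the 5 other genes with the largest falls of at least 2-fold on both slides, and the 5 with the most similar profile. Both groups of 5 were limited to genes whose symbol was matched through a RefSeq accession. The genes and lists were chosen with earlier results of these data known. Figures were drawn with matplotlib 3.10.9.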

Additional observations from a re-analysis of the deposited data

How the results depend on the processing

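With 2 arrays a group and genes of faint signal with DEX, single arrays and the treatment of background set many values. With the replicate block, which is the slide, 44 genes passed for DEX against none in control virus cells. Against the control with DEX 0 passed for shRNA1 and 1 for shRNA2, and between the hairpins 0. Against no DEX 21 passed for shRNA1 and 34 for shRNA2. The fit without the block called 0 in each comparison. In the comparisons with a hairpin, the block turned 7 differences of the 7 genes into calls, all named above, and changed no other call of theirs. These calls count Slc17a7 for both hairpins, and all use the arrays without DEX on which the genes were chosen. For DEX against none the 7 genes were not tested. Leaving out each array in turn without the block gave 0 to 0 genes called in every comparison, and with the block 0 to 130, 0 to 0, 0 to 9, 0 to 0, 0 to 58 and 0 to 11 in the same order (a lone array was assumed to vary like the other groups); without replicate 2 of the control without DEX, the last 2 counts were 15 and 10. The number of the 7 genes above the control with DEX without overlap was 5 for shRNA1 and 2 for shRNA2; for shRNA1 it was 4 with quantile normalization (13% of all genes), with the array median as scale (8.76%) and in the authors' log2 table (13.1%), and 5 with no filter on dim probes (15.7%) or with the mean of all tested probes (18.1%). For shRNA2 it was 1 with quantile normalization (7.42%), 1 with the array median (4.9%), 1 in the authors' table (7.47%), 2 with no filter (6.88%) and 3 with the mean of probes (6.96%). The planned normexp correction gave 0 for shRNA1 (3.97%) and 7 for shRNA2 (53.5%). Some spots have a local background far above the rest. A repair, added after seeing the data, set backgrounds above the 99th percentile of an array to that array's median background. With it the counts were 4 (13%) and 0 (6.05%).

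Signs that reversed follow, as log2 differences; the cause was not tested. For shRNA1 against the control with DEX, Slc17a7 was 1.24 with normexp and 0.48 with its repair. For shRNA2, with normexp Mgll was 1.77, Artn 2.37 and Slc17a7 2.46, and with the repair 0.23, 0.32 and 0.26; Mgll was 0.16 with the mean of its probes and Ptpn14 -0.13 with the array median. Between the hairpins normexp gave -0.99 for Mgll, -0.85 for Nacad, -1.02 for Prss50, -1.13 for Artn, -0.56 for Ptpn14, -1.05 for Slc23a1 and -1.22 for Slc17a7. For shRNA2 against no DEX it gave 0.013 for Nacad, 0.27 for Artn, 0.33 for Slc23a1 and 0.41 for Slc17a7. Leaving out each array in turn, shRNA1 against the control with DEX ran from -0.64 to 2.29 for Ptpn14 and from -0.91 to 0.64 for Slc17a7. For shRNA2 it ran from -1.36 to 1.60 for Ptpn14, -0.13 to 1.32 for Prss50, -0.34 to 0.11 for Mgll and -0.65 to 0.0039 for Artn, and between the hairpins from -0.78 to 2.19 for Ptpn14 and -0.48 to 0.97 for Prss50. With the block as well, shRNA2 ran from -0.23 to 0.46 for Ptpn14 (-0.18 without shRNA2 replicate 1) and -0.34 to 0.12 for Mgll, and the difference between the hairpins from -0.17 to 0.65 for Prss50. The fall with DEX kept its sign for all 7 genes under every alternative run, yet it was smaller by more than the spread between replicates for 6 genes in the authors' table (-2.97 for Prss50 to -0.92 for Slc17a7), 5 with normexp (-2.10 for Artn to -1.88 for Mgll) and 6 with its repair (-2.85 for Prss50 to -0.87 for Slc17a7). Leaving out each array, the Ptpn14 fall ran from -4.12 to -1.93, the last without replicate 1 of the control without DEX. The median of all genes for shRNA1 against the control with DEX was 0.18, and -0.22 with the array median as scale.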

Other observations

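Of 5 genes of the glucocorticoid response, the 4 that glucocorticoids are known to raise stood above the level without DEX in both hairpin groups. Tsc22d3, the glucocorticoid-induced leucine zipper, had levels of 2.63 and 2.10 with shRNA1, 2.76 and 1.66 with shRNA2, 2.57 and 1.95 with the control virus and DEX, and 1.11 and 0.95 without DEX. Fkbp5, a cochaperone of the glucocorticoid receptor, had levels of 1.09 and 2.01 with shRNA1, 1.18 and 2.24 with shRNA2, 2.24 and 2.44 with the control virus and DEX, and -0.30 and 0.61 without DEX. Mt2, a metallothionein, had levels of 7.26 and 6.94 with shRNA1, 6.72 and 7.31 with shRNA2, 7.80 and 7.28 with the control virus and DEX, and 3.81 and 2.72 without DEX. Per1, a clock gene, differed by 0.32 with shRNA1 and 0.03 with shRNA2 from the control with DEX, and by 1.26 between DEX and none. Nr3c1, the receptor itself, differed by 0.02 with DEX. None of the 5 passed limma's test without the slide block. With the block Mt2 passed between DEX and none, with an adjusted p of 0.0413 in limma.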
